A study of Capra hircus with 20 samples.

Results

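The comparison covered here is that of the hypothalamus of goats 120 days old with that of goats 60 days old. It uses 10 of the 20 small RNA libraries of the series, 5 at each age, and was made over all 683 miRNAs of the deposited table. Values are in RPM, a miRNA's reads per 1000000 miRNA reads of its library, and each change is the mean log2(RPM + 1) of day 120 minus that of day 60. The animals were Jining grey goats, kept in 1 environment with free access to food and water, and the series also holds 5 libraries each of days 1 and 180. Every library was made from total RNA of hypothalamic tissue extracted with Trizol. The labels describe 5 biological replicates at each age, do not say how the tissue was cut out, and give neither sex nor pubertal state, so neither can be set beside the values. In bulk tissue, fewer cells of a type and less RNA per cell cannot be told apart.

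A miRNA is a short RNA that guides Argonaute proteins to matching messenger RNAs and lowers their output. It is cut from 1 of the 2 arms of a hairpin, named 5p and 3p, and usually 1 arm is kept while the other is mostly degraded. The hypothalamus releases gonadotropin-releasing hormone (GnRH), whose rising pulses start puberty, and miRNAs such as the miR-200 family, miR-155 and miR-30b are known to act on the genes that hold GnRH neurons back before puberty. The DLK1-DIO3 region, which returns throughout the results, is an imprinted locus whose maternal copy gives rise to one of the largest runs of miRNA genes in mammals, most of them active in neurons.

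The libraries of both ages looked like brain. miR-9-5p, a miRNA of neural cells, led 7 of them, with between 62610 and 237560 RPM over all 10. The other 3 were all of day 60: libraries 1 and 4 were led by miR-7-5p and library 3 by miR-143-3p. Recovered depth was 5940200 ± 890900 miRNA reads on day 60 and 7492200 ± 952700 on day 120 (SD, n = 5). The day-120 libraries were deeper (exact permutation test, two-sided, p = 0.0318, adjusted over 4 library measures p = 0.127). The number of miRNAs listed above 0 was 521.2 ± 26.9 and 534.6 ± 8.47. The 10 most abundant miRNAs took 66.3% ± 4.00 and 67.1% ± 4.04 of the reads. Within day 60, libraries 1 and 5 lay above the day-60 mean over the 414 tested miRNAs, with median differences of 0.27 and 0.29, and libraries 3 and 4 lay below it, at -0.37 and -0.39. Day-60 library 3 was the shallowest of the 10, at 4353384 reads. On day 120 the same medians ran from -0.26 in library 1 to 0.32 in library 2.

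No miRNA passed the test between day 60 and day 120. The test took in the 414 miRNAs with 1 RPM or more in 5 or more of all 20 libraries. limma called 0 of them at an adjusted p of 0.05 (0.00% of those tested), and the smallest adjusted p was 0.913, shared by all of the leading miRNAs. Without adjustment, 13 miRNAs had a p under 0.05 (3.14% of those tested), 3 higher on day 120 (0.725%) and 10 lower (2.42%). edgeR with TMM scaling, edgeR on library size and DESeq2 each called 0 as well, with 30, 19 and 43 miRNAs at an unadjusted p under 0.05 and smallest adjusted p of 0.388, 0.764 and 0.0591. The count of 13 became 20 without library 1 of day 60, 7 without library 4 and 31 without library 5 of that age, 6 without library 1 and 7 without library 5 of day 120, and 25 without library 2 of day 1, which enters only the shared spread. All differences described below are therefore differences between these 10 libraries that did not pass the correction.

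**Figure D1:**
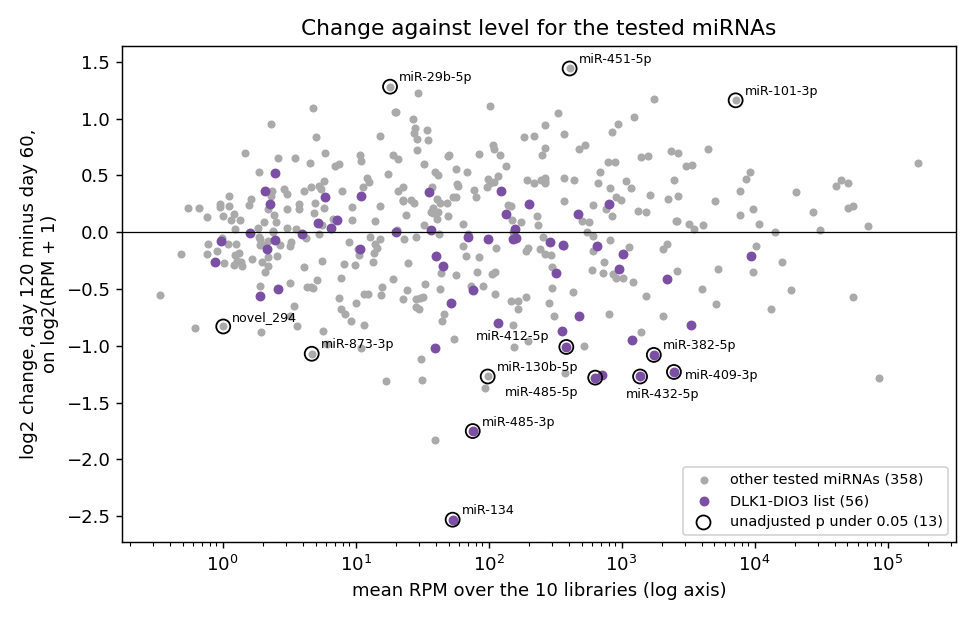
Log2 change (day 120 minus day 60, vertical axis) against mean RPM over the 10 libraries (horizontal log axis) for the 414 tested miRNAs. Purple points are the 56 tested members of the DLK1-DIO3 list and circles mark the 13 miRNAs at an unadjusted p under 0.05, of which 7 are purple and lie below 0.

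The changes were small against their errors. Of the 414 miRNAs 217 (52.4%) lay above 0 and 197 (47.6%) below, with a median of 0.03. A change past 2-fold was measured for 11 miRNAs upward (2.66%) and 21 downward (5.07%), while 382 stayed under 2-fold. The median standard error was 0.518, and the 95% interval of a change reached a median of 1.07 log2 units to either side. The interval lay wholly within 2-fold for 41 miRNAs (9.90%), so for the other miRNAs a 2-fold change in at least 1 direction was not bounded by these data. These 41 had a median level of 2.53 RPM, where adding 1 to the RPM shrinks a change. With 0.1 or 5 added in place of 1 the count was 17 or 141. With the filter raised to 10 RPM, which tests fewer miRNAs, it was 18. The count of 41 also depended on single libraries: it was 26 without library 2 and 27 without library 5 of day 60, 26, 26 and 24 without library 3, 4 or 5 of day 120, and 74 without library 2 of day 1.

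A broad group of lower values lay in the DLK1-DIO3 cluster. Its tested list holds 56 mature miRNAs from 40 hairpins, of which 39 lay below 0 and 17 above, with a median of -0.14 against 0.03 over all tested miRNAs. Over all 414 tested miRNAs 197 lay below 0 (47.6%). No member of the list was called. At an unadjusted p under 0.05, 7 of the 56 members were lower, against 10 of all 414 (2.42%), of which 3 lie outside the list. No member was higher at that level, against 3 of all 414 (0.725%). The list was known from earlier results of these data, and members that share a hairpin are not independent of each other.

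miR-432-5p, from the proximal group of the cluster near MEG3, had the smallest p of all miRNAs. It measured 1906, 2034, 2455, 2113 and 1139 RPM in day-60 libraries 1 to 5, and 443, 1360, 899, 764 and 670 RPM in day-120 libraries 1 to 5. Only library 2 of day 120 reached into the day-60 range, where library 5 was lowest. The change was -1.27 (SE 0.43, 95% interval -2.16 to -0.39, limma unadjusted p = 0.0067, adjusted p = 0.913). It was the one member of the list below an unadjusted p of 0.05 in each of the 10 fits that left out 1 library of either age, between -1.48 and -1.07. miR-433, its neighbour in the same group, a miRNA known to target messenger RNAs in neurons, measured 843, 1555, 785, 949 and 629 RPM on day 60. On day 120 it measured 111, 966, 656, 440 and 247 RPM, a change of -1.26 (SE 0.72). Here 3 of the day-120 values lay under every day-60 value. miR-127-3p, the most abundant member, encoded antisense to the paternally expressed gene RTL1, did not share this: it measured between 7436 and 16642 RPM on day 60 and between 4793 and 10883 RPM on day 120 (change -0.21, SE 0.39).

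The distal run, which starts at miR-379 and ends at miR-656, held the other 6 members at an unadjusted p under 0.05. 3 of its genes that neighbour each other in the RefSeq annotation, miR-382, miR-134 and miR-485, gave 4 of them. miR-382-5p, a neuronal miRNA, measured 2980, 2524, 1988, 2223 and 1797 RPM on day 60 and 546, 1915, 1553, 1262 and 700 RPM on day 120 (change -1.08, SE 0.43, unadjusted p = 0.0191). Day-120 library 2 alone lay inside the day-60 range. miR-485-5p, known for lowering synaptic proteins, measured 585, 1325, 612, 1571 and 474 RPM, and then 195, 520, 445, 367 and 246 RPM (change -1.28, SE 0.61, unadjusted p = 0.045). The other arm of that hairpin, miR-485-3p, measured 120, 107, 93.5, 192 and 61.6 RPM, and then 15.2, 76.4, 43.5, 35.7 and 16.1 RPM (change -1.75, SE 0.78, unadjusted p = 0.0339). In both arms 4 of 5 day-120 libraries lay below every day-60 library.

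miR-134, a miRNA of dendrites that limits the growth of spines, had the largest change of all tested miRNAs. It measured 119, 80.1, 39.5, 62.2 and 87.8 RPM on day 60 and 29.1, 0.841, 52.8, 64.3 and 0.748 RPM on day 120. Libraries 2 and 5 of day 120 were near the floor while 3 and 4 lay inside the day-60 range. The change of -2.53 (SE 1.03, unadjusted p = 0.0214) rests on those low libraries: it was -1.84 without library 2 of day 120 and -1.82 without library 5 (unadjusted p = 0.0889 in both). Each of these fits still held the other low library, and a fit without both was not run.

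miR-409-3p and miR-412-5p, whose genes are also neighbours, made up the rest. miR-409-3p measured 2639, 4243, 2675, 6210 and 1791 RPM on day 60 and 832, 2315, 1450, 1553 and 1064 RPM on day 120 (change -1.23, SE 0.57, unadjusted p = 0.04). miR-412-5p measured 610, 521, 348, 431 and 635 RPM and then 330, 390, 203, 173 and 203 RPM (change -1.01, SE 0.48, unadjusted p = 0.0478). In each, 4 of 5 day-120 values lay below all day-60 values. Among the 10 fits that left out 1 library of either age, an unadjusted p under 0.05 was kept in 8 for miR-382-5p and for miR-134 and in 6 for miR-485-3p. For miR-134 every such fit held at least 1 of its low libraries of day 120. It was kept in 5 for miR-485-5p and for miR-409-3p and in 3 for miR-412-5p. The highest p of miR-409-3p was 0.111, without library 4 of day 60, and that of miR-412-5p was 0.106, without library 4 of day 120.

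**Figure D2:**
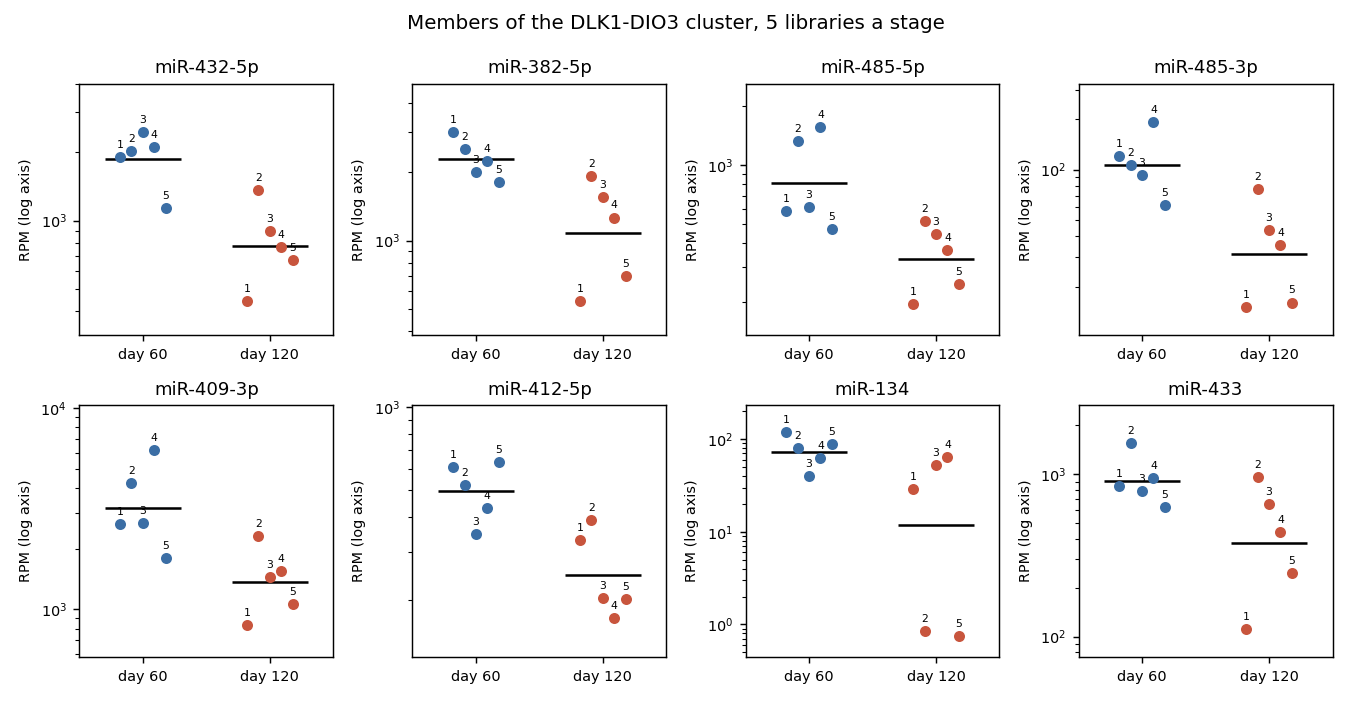
RPM (log axis) of 8 DLK1-DIO3 members in the 5 libraries of day 60 (blue) and of day 120 (red), with the library number at each point and the mean on the log2(RPM + 1) scale as a bar. Day-120 library 2 is the highest red point in all panels except miR-134, where libraries 2 and 5 lie near 1 RPM.

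The lower values were not spread evenly over the cluster. All 63 listed miRNAs of the cluster matched a gene on 1 chromosome of the RefSeq table, in a run of 45 miRNA genes. miR-410-3p and miR-656 at the far end lay above 0, and miR-323b between them lay at -1.02. The middle of the run, from miR-376c-3p (0.52) to miR-655 (-0.06), lay between -0.15 and 0.52. Within a hairpin the arms could part, as in miR-382 with -1.08 for 5p and -0.19 for 3p, and miR-409 with -1.23 for 3p and -0.12 for 5p. By level, of the 27 members at 100 RPM or more, 21 lay below 0 (77.8%, median -0.32), against 76 of all 170 miRNAs at that level (44.7%). Of the 14 members between 10 and 100 RPM, 10 lay below 0 (71.4%, median -0.18), against 47.9% of all miRNAs at that level. Of the 15 members under 10 RPM 8 lay below 0 (53.3%), against 51.2% of all.

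**Figure D3:**
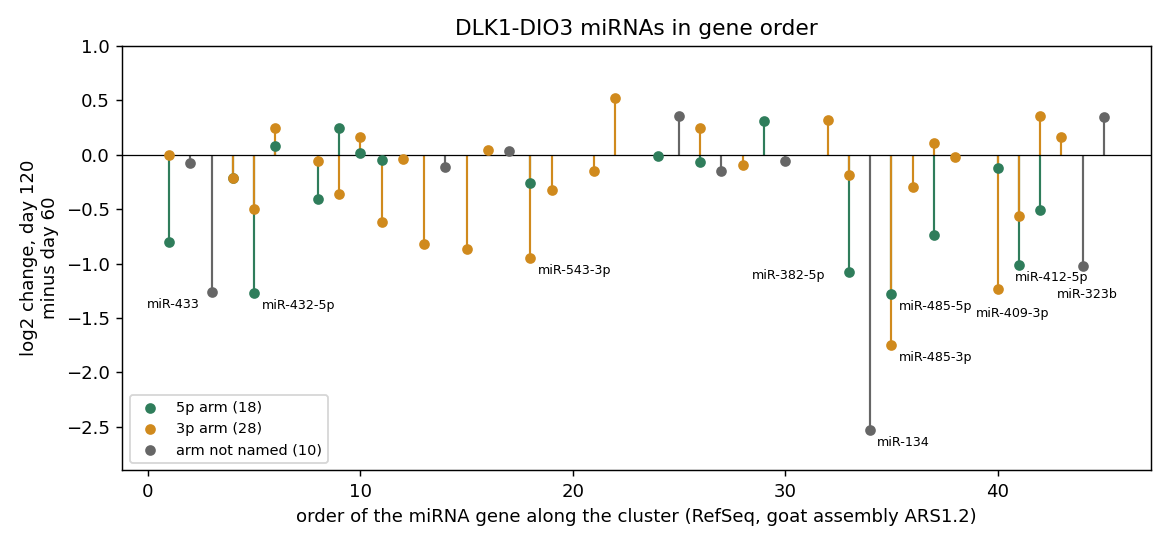
Log2 change (vertical axis, day 120 minus day 60) of the 56 tested DLK1-DIO3 miRNAs by the order of their genes along the cluster (horizontal axis). Arms are coloured; the lowest points are miR-134 and the 2 arms of miR-485, next to each other in the run.

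Because abundant members lay lower, the summed level, which they dominate, differed more between the ages than the median did. It holds the members named above, so it is not separate support for them. The distal run summed to 28141, 24439, 16329, 25713 and 22282 RPM in day-60 libraries 1 to 5. It summed to 11742, 23382, 14362, 13140 and 11035 RPM in day-120 libraries 1 to 5, 4 of which lay below every day-60 library. The proximal group summed to 13370 ± 4077 RPM on day 60 and 10260 ± 2828 RPM on day 120 (SD, n = 5). By library, 39, 40, 49 and 52 of the 56 members lay below their day-60 mean in day-120 libraries 1, 3, 4 and 5, but 13 did in library 2. That is 69.6%, 71.4%, 87.5% and 92.9% of the members, and 23.2% in library 2. Over all 414 tested miRNAs the shares in libraries 1, 3, 4 and 5 were 59.9%, 40.1%, 50.7% and 61.6%, and 145 of them lay below in library 2. On day 60 the count ran from 10 in library 1 to 49 in library 3, so libraries of 1 age also differed widely from each other. The median of the distal run, -0.12 with all libraries, was 0.22 without library 1 of day 60 and 0.02 without library 5, and -0.45 without library 3. Neuron markers outside the cluster, miR-124a and miR-128-3p among them, lay above 0 in 7 of 8, and their summed level was highest in libraries 1 and 2 of day 120. In each of those 2 libraries 12.5% of these markers lay below their day-60 mean. In day-120 libraries 3, 4 and 5, where most cluster members were also below theirs, the shares were 62.5%, 75.0% and 87.5%. The part of neurons in the cluster's values was not tested.

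Outside this cluster, the lower miRNA with the smallest p among those at 10 RPM or more was miR-130b-5p, which was the more abundant arm of its hairpin in all 10 libraries. It measured 52.9, 206, 250, 125 and 78.3 RPM on day 60 and 19.0, 79.4, 58.3, 61.6 and 55.5 RPM on day 120 (change -1.27, SE 0.53, unadjusted p = 0.0228). The groups overlapped, since only library 1 of day 120 lay under all of day 60. The unadjusted p stayed under 0.05 in 7 of the 10 fits without 1 library and was 0.089 without library 1 of day 120. miR-873-3p and the numbered prediction novel_294, the other 2 at an unadjusted p under 0.05, stayed below 10 RPM in each of the 10 libraries.

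Liver-enriched miR-122 and miR-105a were the 2 miRNAs at 10 RPM or more whose day-120 values all lay below their day-60 values. In all, 4 of the 414 tested miRNAs had groups that did not overlap (0.966%), 3 lower (0.725%) and 1 higher (0.242%); the third lower one, novel_217, stayed below 2 RPM. Of the 252 ways to split 10 libraries 5 against 5, a fraction of 0.00794 separates the values of a miRNA fully in either direction. miR-122 measured 139, 138, 233, 2540 and 124 RPM on day 60, and 115, 112, 121, 120 and 102 RPM on day 120. The ages were separated by little except in library 4 of day 60, and without that library the change went from -1.24 to -0.43 (unadjusted p = 0.558). miR-184, a miRNA of eye and other epithelia, was also raised in that library, at 710 RPM against 20.1 to 44.3 RPM in the other day-60 libraries and 8.73 to 43.0 RPM on day 120. Its change of -1.37 became -0.43 without it. miR-105a measured 355, 295, 195, 246 and 203 RPM on day 60 and 95.4, 182, 173, 124 and 95.9 RPM on day 120 (change -0.96, SE 0.63, unadjusted p = 0.141).

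Among higher values, erythroid and blood-derived miR-451-5p had the largest change. This miRNA is made in red cell precursors without Dicer and is carried in red cells. It measured 176, 170, 218, 148 and 278 RPM on day 60 and 540, 1325, 536, 445 and 232 RPM on day 120. Libraries 1 to 4 of day 120 lay above every day-60 library and library 5 did not. The change was 1.44 (SE 0.56, unadjusted p = 0.0162, adjusted p = 0.913), and 1.10 without library 2 of day 120 (unadjusted p = 0.065). miR-144-5p, from the same erythroid cluster, measured 6.24, 2.72, 6.43, 1.28 and 10.3 RPM on day 60 and 5.75, 11.4, 8.53, 1.92 and 3.49 RPM on day 120 (change 0.21, SE 0.52). Its levels overlapped between the ages, and within each age it was highest in the library where miR-451-5p was highest. miR-144-3p stayed under 2 RPM, and was also highest in those libraries. The part of residual blood in the value of miR-451-5p was not tested.

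miR-101-3p, known to target the messenger RNA of the chromatin enzyme EZH2, was one of the 3 miRNAs higher at an unadjusted p under 0.05. It measured 5832, 3400, 2132, 2991 and 9247 RPM on day 60 and 15677, 7862, 6140, 8169 and 10664 RPM on day 120. Libraries 1 and 5 of day 120 lay above all of day 60, and each day-120 library lay above the day-60 mean. The change was 1.16 (SE 0.46, 95% interval 0.22 to 2.11, unadjusted p = 0.0179). It was 0.93 without library 3 of day 60, its lowest value (unadjusted p = 0.0626), and 0.97 without library 1 of day 120 (unadjusted p = 0.0543).

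The miR-29 family, which represses collagens and DNA methyltransferases and is abundant in mature neurons and glia, lay higher in 5 of 5 tested members, with a median of 0.68. None was called. miR-29b-5p, the minor arm, measured 19.2, 11.2, 0.689, 8.16 and 21.9 RPM on day 60 and 22.3, 43.0, 20.6, 19.4 and 15.2 RPM on day 120 (change 1.28, SE 0.60, unadjusted p = 0.0434). miR-29b-3p measured 128, 46.5, 19.1, 51.3 and 122 RPM and then 160, 173, 128, 116 and 88.9 RPM (change 1.11, SE 0.55, unadjusted p = 0.0517). In both, libraries 1 and 5 of day 60 were at the level of day 120, and libraries 2, 3 and 4 lay below it. Library 3 of day 60, also the shallowest, was the lowest for both, and without it the changes were 0.65 and 0.72 (unadjusted p = 0.228 and 0.193). The median of the family stayed between 0.55 and 0.87 over the fits without 1 library.

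**Figure D4:**
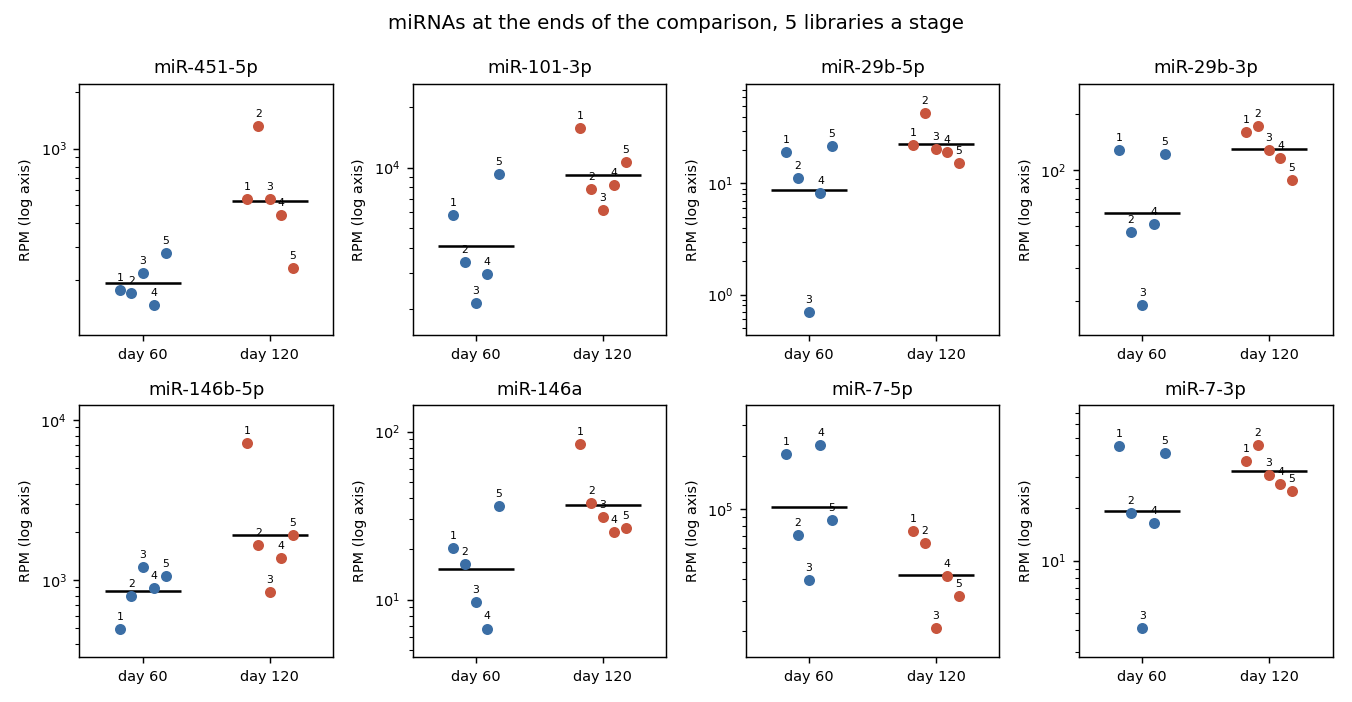
RPM (log axis) of 8 miRNAs in the 5 libraries of day 60 (blue) and of day 120 (red), with the library number at each point and the mean on the log2(RPM + 1) scale as a bar. The ages overlap in every panel; libraries 1 and 5 of day 60 lie near the day-120 values for miR-29b-5p, miR-29b-3p and miR-7-3p.

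The same order of the day-60 libraries returned in other miRNAs, and it is also that of all 414 tested miRNAs. Their median differences from the day-60 mean were 0.27 and 0.29 in libraries 1 and 5, and -0.37 and -0.39 in libraries 3 and 4. The order is thus not particular to the miRNAs named here. miR-30b-5p, known to target the puberty brake MKRN3, measured 1426, 465, 194, 196 and 1237 RPM on day 60 and 942, 1449, 1309, 686 and 547 RPM on day 120 (change 0.88, SE 0.55). miR-106b-5p of the miR-17 seed family measured 41.0, 15.2, 4.82, 7.20 and 50.4 RPM and then 29.0, 34.7, 41.0, 32.3 and 26.4 RPM (change 0.92, SE 0.62). miR-126-5p of endothelial cells measured 386, 230, 103, 44.3 and 541 RPM and then 364, 623, 369, 312 and 334 RPM (change 1.05, SE 0.59). In all 3, libraries 1 and 5 of day 60 were within or above the day-120 range, and libraries 3 and 4 were below it. miR-497-5p, a partner of miR-195, followed in part, with 16.2, 19.0, 7.58, 2.40 and 24.9 RPM on day 60 and 17.7, 18.1, 25.4, 38.2 and 26.7 RPM on day 120 (change 1.06, SE 0.58).

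Spread was narrower on day 120. The SD of log2(RPM + 1) over the 5 libraries was smaller on day 120 than on day 60 for 271 of 414 miRNAs (65.5%), and its median went from 0.721 to 0.568. miR-9-5p is an example: it measured 174180, 155130, 62610, 84885 and 230010 RPM on day 60, and 237560, 189890, 178050, 179540 and 192810 RPM on day 120 (change 0.61, SE 0.37). Libraries 3 and 4 of day 60 were the lowest of the 10. miRNAs of a library are not independent, so the count of 271 has no test.

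The inflammatory regulators miR-146a and miR-146b, which dampen Toll-like receptor signalling, lay higher on day 120. miR-146b-5p measured 493, 796, 1216, 891 and 1060 RPM on day 60 and 7209, 1659, 845, 1367 and 1909 RPM on day 120 (change 1.17, SE 0.63, unadjusted p = 0.0722). Library 1 of day 120 stood far above the rest, and without it the change was 0.70 (unadjusted p = 0.266). miR-146b-3p measured 5.15, 11.2, 16.1, 8.96 and 14.8 RPM and then 71.8, 18.7, 8.83, 21.9 and 23.6 RPM (change 1.06, SE 0.68). miR-146a measured 20.3, 16.3, 9.65, 6.72 and 36.1 RPM and then 84.2, 37.7, 31.1, 25.1 and 26.6 RPM (change 1.22, SE 0.62, unadjusted p = 0.0596). Other immune markers on the list did not move alike: miR-155-5p lay at -0.61 and miR-21-5p at 0.47, and the tested list lay above 0 in 6 of 8 with a median of 0.41.

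miR-7-5p, abundant in neuroendocrine cells of the hypothalamus and pituitary, measured 204800, 70742, 39062, 229220 and 85994 RPM on day 60. On day 120 it measured 74610, 63668, 21006, 41380 and 31685 RPM. Libraries 1 and 4 of day 60 stood above the rest, and the other values overlapped (change -1.28, SE 0.72, unadjusted p = 0.0872). Its partner arm miR-7-3p measured 45.1, 18.7, 4.13, 16.5 and 40.9 RPM and then 37.2, 45.5, 30.7, 27.3 and 25.1 RPM (change 0.72, SE 0.54). The ratio of the 2 arms, taken as the difference of their log2(RPM + 1) values, was 12.3 ± 1.03 log2 units on day 60 and 10.3 ± 0.57 on day 120 (SD, n = 5). All 5 day-120 ratios, 9.37 to 10.93, lay below all 5 day-60 ratios, 11 to 13.68. Such a separation was seen in 3 of the 120 hairpins with both arms tested (2.50%), 2 lower (1.67%) and 1 higher (0.833%), the others being miR-103 and, higher, miR-145. The difference of -2 (SE 0.72, unadjusted p = 0.0101) did not pass over the 120 hairpins (limma adjusted p = 0.735).

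Arm balance changed in 0 of the 120 hairpins (0.00%) after adjustment, with 7 at an unadjusted p under 0.05 (5.83%). After miR-7 the smallest p were those of miR-27b, miR-130b, miR-103 and miR-23b, all with ratios of 5p to 3p that lay lower on day 120. In miR-27b, from the miR-23b cluster, the ratio was -9.36 ± 0.78 on day 60 and -10.26 ± 0.09 on day 120 (SD, n = 5), a difference of -0.91 (SE 0.39). In miR-23b it was -9.52 ± 1.47 and -10.62 ± 0.32, a difference of -1.10 (SE 0.50). miR-23b-5p itself measured between 4.51 and 40.0 RPM on day 60 and between 2.69 and 10.02 RPM on day 120. The count of 7 became 11 without library 1, 4 without library 2, 1 without library 3, 2 without library 4 and 17 without library 5 of day 60, and 3, 2 and 4 without library 1, 2 or 5 of day 120.

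Among lists of cell types, skeletal and cardiac muscle had the highest median, 0.74, with 5 of 6 members above 0 and none called. miR-1, the main miRNA of muscle, measured 409, 383, 1377, 1852 and 618 RPM on day 60 and 2057, 1009, 1665, 1375 and 1749 RPM on day 120 (change 1.01, SE 0.67), with overlap through libraries 3 and 4 of day 60. The summed muscle markers ranged from 642 to 2311 RPM on day 60 and from 1468 to 2406 RPM on day 120. Astrocyte markers, 15 of 18 above 0 with a median of 0.42, include the miR-29 family. Their sum ranged from 47413 to 156990 RPM on day 60 and from 98295 to 145440 RPM on day 120. Vessel markers lay above 0 in 9 of 11, median 0.36, with sums from 32236 to 139170 RPM and from 36926 to 127550 RPM. Neuron markers lay above 0 in 7 of 8, median 0.32, with sums from 16356 to 49112 RPM and from 17606 to 74249 RPM. Libraries 1 and 2 of day 120 carried this median: 1 of the 8 members lay below its day-60 mean in each of them, but 5, 6 and 7 did in libraries 3, 4 and 5. Without library 1 of day 120 the median was 0.10. Among them miR-124a, the defining neuronal miRNA, measured 983, 429, 219, 327 and 1571 RPM and then 1742, 2004, 976, 607 and 618 RPM (change 0.95, SE 0.54). miR-128-3p measured 8795, 15449, 23261, 24378 and 12763 RPM and then 47611, 34432, 15638, 11493 and 11322 RPM, so that libraries 1 and 2 of day 120 carried its change of 0.35. None of these lists had a called member, and their sums overlapped between the ages.

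**Figure D5:**
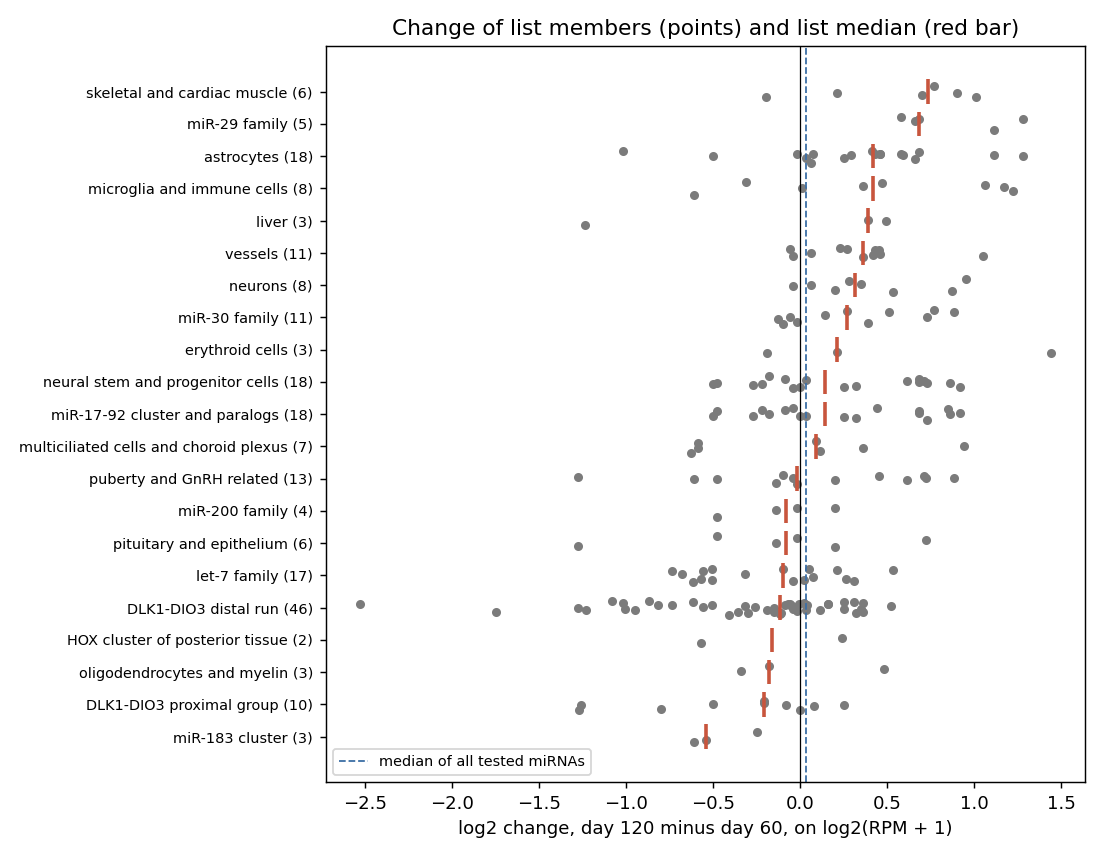
Log2 change (horizontal axis, day 120 minus day 60) of the tested members (grey points, number in brackets) and median (red bar) of each list, with the median of all tested miRNAs as a dashed line. Medians run from -0.54 for the miR-183 cluster to 0.74 for muscle, and the points of most lists lie on both sides of 0.

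Of the families and clusters, let-7, miR-30 and miR-200 had medians nearer to 0.03, that of all tested miRNAs, than the miR-183 cluster at -0.54. The let-7 family, which builds up as cells differentiate, had 10 of 17 members below 0 and a median of -0.10. It summed to 264100 ± 65550 RPM on day 60 and 234500 ± 47450 RPM on day 120 (SD, n = 5). let-7b-3p lay lowest in it at -0.74. The miR-30 family had a median of 0.27 with 7 of 11 above 0, and its sum was 12300 ± 2662 and 15930 ± 1803 RPM. In that family miR-30e-3p was the 1 miRNA of all 414 with every day-120 value above every day-60 value: it measured 808, 1095, 1130, 978 and 1068 RPM and then 1131, 1168, 1302, 1508 and 1542 RPM (change 0.39, SE 0.34, unadjusted p = 0.272). The separation was narrow, since the lowest day-120 value and the highest day-60 value were 1131 and 1130 RPM. The list of puberty and GnRH related miRNAs lay above 0 in 6 of 13, median -0.02. miR-200 family members, which keep GnRH neurons mature by repressing ZEB1, lay above 0 in 1 of 4, with sums from 114 to 346 RPM on day 60 and from 67.6 to 794 RPM on day 120. Library 5 of day 120 held the highest sum, and also that of the miR-183 cluster of sensory cells, at 1172 RPM against 18.8 to 139 RPM in the other day-120 libraries.

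Markers of further tissues and cells lay on both sides of 0. Multiciliated cells and choroid plexus lay above 0 in 4 of 7, median 0.09. In that list miR-204-5p, the choroid plexus miRNA, measured between 2285 and 10845 RPM on day 60 and between 1380 and 4969 RPM on day 120, and miR-34c-5p reached 1662 RPM in library 2 of day 120 against at most 182 RPM in the other 9 libraries. Oligodendrocytes and myelin lay above 0 in 1 of 3, median -0.18, with miR-338-3p at 0.48. Neural stem and progenitor cells lay above 0 in 10 of 18 and the miR-17-92 cluster with its paralogs in 10 of 18, both with a median of 0.14, since the first list holds most of the second. Pituitary and epithelium lay above 0 in 2 of 6, median -0.08, liver in 2 of 3, median 0.39 with miR-192-5p at 0.39, erythroid cells in 2 of 3, median 0.21, the miR-183 cluster in 0 of 3, median -0.54, and the HOX cluster of posterior tissue in 1 of 2, median -0.17 with miR-10a-5p at -0.57. Leaving out 1 library turned the sign of the median in 11 of the 21 lists. Without library 1 of day 120 the median was 0.11 for the HOX cluster, 0.04 for the miR-183 cluster, 0.26 for the miR-200 family and for pituitary, 0.21 for oligodendrocytes and 0.31 for puberty. Without library 3 of day 60 it was -0.05 for the miR-17-92 list and for stem cells. It was -0.60 for multiciliated cells without library 2 of day 120, and -0.11 for erythroid cells without library 4 of day 60 or -0.04 without library 2 of day 120. More than 1 library had this effect for 8 of the 11 lists, among them 7 for puberty and 5 each for the miR-200 family, pituitary and multiciliated cells. On the recovered reads (edgeR with TMM) the medians of the miR-183 cluster, the miR-200 family, pituitary and puberty lay above 0, at 0.40, 0.27, 0.27 and 0.29.

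The most abundant miRNAs lay within 2-fold of each other between the ages, apart from miR-7-5p. let-7f-5p measured between 58014 and 94597 RPM on day 60 and between 64997 and 82969 RPM on day 120 (change 0.05, SE 0.39). miR-26a-5p, of astrocytes and other cells, measured 64729, 37390, 35429, 24258 and 60823 RPM and then 54648, 67794, 61281, 51008 and 47983 RPM (change 0.43, SE 0.31). miR-100-5p measured between 26545 and 51743 RPM and then between 27975 and 67078 RPM (change 0.46, SE 0.35). miR-143-3p of smooth muscle ranged from 23439 to 130050 RPM on day 60 and from 24921 to 113710 RPM on day 120, with library 3 of day 60 and libraries 1 and 5 of day 120 high (change 0.23, SE 0.61). let-7g-5p, let-7i-5p, let-7a-5p and miR-27b-3p had changes of 0.21, 0.02, -0.57 and 0.41, with SE of 0.35, 0.39, 0.47 and 0.49.

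The levels of the leading miRNAs at the outer ages are given as description only. miR-432-5p averaged 1482 ± 1037 RPM on day 1 and 779 ± 193 RPM on day 180 (SD, n = 5 at each age), and miR-382-5p 1680 ± 902 and 1072 ± 280 RPM. miR-409-3p averaged 4103 ± 4693 and 1882 ± 1150 RPM. miR-412-5p averaged 835 ± 548 and 224 ± 120 RPM, and miR-485-5p 1023 ± 1457 and 307 ± 162 RPM. The day-180 means of these 5 lay nearer to the day-120 than to the day-60 means. miR-134 went the other way, with 58.0 ± 41.0 RPM on day 180 against 77.8 ± 29.8 RPM on day 60 and 29.6 ± 29.2 RPM on day 120. miR-451-5p averaged 505 ± 589 RPM on day 1 and 274 ± 63.4 RPM on day 180, where its level lay near that of day 60, and miR-146b-5p 1500 ± 1508 and 1252 ± 992 RPM.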

How the data were processed

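Small RNA libraries of goat hypothalamus (NEBNext small RNA kit, per the labels' protocols) were deposited by the authors as 1 table of RPM values per miRNA, 407 named and 276 numbered predictions; its columns are named TPM, but each column holds whole multiples of 1 step. Dividing by the step gave whole reads for 100% of the values checked (tolerance 0.1 read). The highest values were left out of that check. The deposited sum column, named here as a score, only checked the rows. The submitters' processing notes name Bowtie; its version, and the build, catalogue and counter, were not given in those sources, and mature sequences were not used here. Read depth sets the floor of 3 reads at 0.360 to 0.689 RPM in the 10 libraries, for counting error only.

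limma (version 3.58.1, R 4.3.3; trend, two-sided) was fitted to log2(RPM + 1) of all 20 libraries with 4 stage means and Benjamini-Hochberg adjustment over 414 miRNAs (357 named, 57 predictions); folds near the floor are understated. edgeR (version 4.0.16) and DESeq2 (version 1.42.0) on recovered reads were alternatives. The fits were also run on simulated reads drawn independently for each miRNA. Shifts of whole libraries were not simulated, so that run says nothing on them. Members and lists were chosen with earlier results of these data known. Named miRNAs are those at an unadjusted p under 0.05, the 10 largest changes each way or without overlap (all at 10 RPM or more in 1 stage mean), the 10 most abundant and the extremes of each list; others were chosen after their values were seen. Family members with near-identical sequences can share reads. Library pairs within a stage all differed beyond sampling noise (smallest chi-square per degree of freedom 357). RefSeq (assembly ARS1.2) served for gene order only; 403 of 407 named miRNAs matched 1 gene.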

Additional observations from a re-analysis of the deposited data

Results flagged for a closer look

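Among 56 groups of 5 libraries checked (the leading miRNAs and 4 library measures at each age), 7 had 1 library far from the others by Dixon's ratio. Chance gives about 1 in 20 for independent groups not chosen by their values. The leading miRNAs were chosen from these same libraries and the groups share them, so the 7 cannot be set against that rate. On day 60, library 4 was high for miR-122 (2540 RPM) and for miR-184 (709.6 RPM), and library 3 had the lowest depth (4353000 reads, rounded). On day 120, library 2 was high for miR-126-5p (622.9 RPM). Library 1 of day 120 was set apart 3 times: miR-130b-5p was low (19.0 RPM), 520 miRNAs were listed above 0, and the most abundant miRNA took 23.8% of the reads.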

How the results depend on the processing

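The count of 0 changed miRNAs held under every alternative run, with smallest adjusted p from 0.0591 (DESeq2) to 0.991; the count of 0 hairpins held too, from 0.105 to 0.976. The count at an unadjusted p under 0.05, 13, was 24 with median-of-ratios scaling, 21 with quantile scaling, 30 with only the libraries of days 60 and 120, 30 with edgeR and TMM and 43 with DESeq2, and 6 to 31 with 1 library left out. The 41 intervals within 2-fold became 17 and 141 with a pseudocount of 0.1 or 5, 309 without a filter, 18 with a filter at 10 RPM, 69 with either scaling, 70 with the 2 ages alone and 24 to 74 with 1 library left out. With the filter at 10 RPM, which tests fewer miRNAs, the list medians were 0.68 for stem cells, 0.77 for microglia and 1.44 for erythroid cells. The last is the change of miR-451-5p alone. For pituitary the median ran from -0.54 to 0.26 with 1 library left out. In edgeR with TMM, on library size, and DESeq2 the median of the miR-183 cluster was 0.40, 0.44 and 0.36. Changes near 0 turned sign: let-7f-5p was 0 with median-of-ratios scaling, -0.03 with edgeR and TMM and -0.08 with DESeq2 (-0.01 to 0.17 with 1 library left out); let-7i-5p -0.04, -0.28 with quantile scaling and -0.04 with DESeq2 (-0.12 to 0.16); miR-143-3p -0.03 with quantile scaling (-0.07 to 0.65). With 1 library left out the difference in depth was 1155000 to 1862000 reads (exact p from 0.00794 to 0.0794), that in the share of the top miRNA -0.922 to 1.58 percentage points and of the top 10 -0.695 to 1.82. The replicate number as a replicate block gave 15 miRNAs in place of 13, and 45 within 2-fold. Same-numbered libraries of the 2 ages had correlations of -0.04 to 0.18, and 1 of 5 day-60 libraries was best matched by its own number. With 5 libraries at each age these values cannot decide whether the numbers pair the libraries. The left-out library of day 1 was chosen after seeing the data. Depth limits what is below 10 RPM.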

Other observations

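A further group of neighbouring genes lay lower together. miR-105a, miR-767 and miR-105b, which in mammals sit within the gene of a GABA receptor subunit, are consecutive in the RefSeq table and lay below 0 in 4 of 4 tested miRNAs, between -1.12 and -0.54. miR-105b-5p measured 46.2, 71.0, 26.2, 30.7 and 32.8 RPM on day 60 and 4.77, 26.4, 32.0, 22.1 and 15.7 RPM on day 120 (change -1.12, SE 0.60, limma unadjusted p = 0.0719). miR-767 measured 90.4, 56.7, 49.8, 37.3 and 45.4 RPM and then 15.3, 36.2, 45.9, 39.8 and 26.8 RPM (change -0.78, SE 0.57). This group was chosen after its values were seen, as were the miRNAs below. In the DLK1-DIO3 run, miR-543-3p measured 1563, 1611, 1634, 2092 and 914 RPM and then 481, 1360, 890, 839 and 590 RPM, and miR-323b 37.0, 53.4, 39.1, 86.4 and 46.2 RPM and then 13.1, 48.9, 19.6, 25.6 and 24.9 RPM. Outside it, miR-335-3p, hosted by the imprinted gene MEST, measured 1667, 1496, 1245, 3794 and 1147 RPM and then 808, 1342, 769, 1083 and 698 RPM (change -0.88, SE 0.52). At least 4 of 5 day-120 values lay below every day-60 value for 17 of the 414 tested miRNAs, 9 of them DLK1-DIO3 members, and above every day-60 value for 7, among them miR-145-5p and miR-23a.

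miR-134 was near its floor in some libraries. Over all 20 libraries it had 172 to 961 reads in 17, and 7, 6 and 1 reads in library 2 of day 120, library 5 of day 120 and library 3 of day 180. The lowest of the 17 stood at 29.1 RPM, and the 3 low libraries at 0.841, 0.748 and 0.177 RPM. The numbered prediction novel_997 was low in the same 3 libraries, with 12, 1 and 0 reads, and also in library 1 of day 60, with 3 reads, where miR-134 had 766; in the library with 0 reads the floor of 3 reads is 0.531 RPM. Its other 16 libraries held 120 to 742 reads, and its change was -1.83 (SE 1.16). Of 283 miRNAs with a median of 10 RPM or more over the 20 libraries, 4 had a library under a 20th of that median, the other 2 being miR-122 in library 5 of day 1 (2.66 RPM) and miR-29b-5p in library 3 of day 60 (0.689 RPM).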
